A study of Mus musculus with 20 samples.

Results

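The transcription factors that hold β-cell identity were followed through bulk RNAseq of pancreatic islets from mice lacking the mitofusins Mfn1 and Mfn2, the GTPases that fuse mitochondrial outer membranes, in β-cells. The set was chosen by name and holds 9 genes, Mafa, Pdx1, Nkx6-1, Nkx2-2, Neurod1, Pax6, Isl1, Rfx6 and Hnf4a. All 9 were found by Ensembl ID among the 28632 genes of the count table, in each of its 20 libraries. Islets came from 12-week-old female and male mice on the C57BL/6N background, were isolated with collagenase and were cultured for 24 hours before RNA was taken. β-Mfn1KO mice carried Mfn1 loxP/loxP with Ins1-Cre (n = 4), β-Mfn2KO mice carried Mfn2 loxP/loxP with Ins1-Cre (n = 5), and β-Mfn1/2DKO mice carried both floxed pairs with Ins1-Cre (n = 5). The Ctrl libraries (n = 6) are labelled wild type, whereas the study's methods describe controls that pool Ins1-Cre alone and floxed alleles alone, and the labels do not say which library is which. Ins1-Cre acts in β-cells, while the RNA came from whole islets, which also hold α-, δ- and PP-cells and vessels.

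A mature β-cell is kept as such by a network of DNA-binding proteins that switch on insulin, its processing enzymes and glucose transport, and that keep genes of other islet cells off. Mafa, a basic leucine zipper protein, and the homeodomain proteins Pdx1 and Nkx6-1 are the members most closely tied to the mature β-cell, whereas Nkx2-2, Neurod1, Pax6, Isl1 and Rfx6 are shared with other endocrine cells. Hnf4a, a nuclear receptor, is also used by liver and gut. Inherited faults in PDX1, NEUROD1 and HNF4A each cause maturity-onset diabetes of the young (MODY), a form of diabetes due to a single gene.

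Promoter sequence is shown for 4 members that were lower in β-Mfn1/2DKO islets and for Rfx6, which was not, so that their base composition can be read beside the values. Windows of 250 bases before the RefSeq start site (GRCm38.p6) were found for 8 of the 9 members. The longest stretch of the window outside annotated exons is printed, on the sense strand, and capitals mark TAAT or its complement ATTA, the core that homeodomain proteins such as Pdx1 and Nkx6-1 contact. They are Pdx1 (chr5:147269847-147269958, plus strand), Nkx2-2 (chr2:147186456-147186652, minus strand), Pax6 (chr2:105668646-105668895, plus strand, the first of its 2 start sites), Isl1 (chr13:116309690-116309938, minus strand) and Rfx6 (chr10:51685268-51685517, plus strand).
Pdx1: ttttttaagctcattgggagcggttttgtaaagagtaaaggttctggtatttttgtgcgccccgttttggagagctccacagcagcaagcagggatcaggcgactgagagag
Nkx2-2: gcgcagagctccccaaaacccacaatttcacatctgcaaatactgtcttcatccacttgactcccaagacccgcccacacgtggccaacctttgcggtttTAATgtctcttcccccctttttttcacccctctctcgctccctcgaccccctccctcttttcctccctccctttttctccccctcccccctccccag
Pax6: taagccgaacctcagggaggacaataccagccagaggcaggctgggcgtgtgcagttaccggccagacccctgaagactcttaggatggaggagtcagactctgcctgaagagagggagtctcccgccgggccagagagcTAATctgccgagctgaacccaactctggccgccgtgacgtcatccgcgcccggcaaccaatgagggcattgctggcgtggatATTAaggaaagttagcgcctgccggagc
Isl1: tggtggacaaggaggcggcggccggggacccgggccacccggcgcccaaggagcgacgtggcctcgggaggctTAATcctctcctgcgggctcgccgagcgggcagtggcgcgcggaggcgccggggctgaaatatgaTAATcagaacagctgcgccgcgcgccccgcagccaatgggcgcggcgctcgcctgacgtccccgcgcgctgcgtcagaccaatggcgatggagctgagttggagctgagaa
Rfx6: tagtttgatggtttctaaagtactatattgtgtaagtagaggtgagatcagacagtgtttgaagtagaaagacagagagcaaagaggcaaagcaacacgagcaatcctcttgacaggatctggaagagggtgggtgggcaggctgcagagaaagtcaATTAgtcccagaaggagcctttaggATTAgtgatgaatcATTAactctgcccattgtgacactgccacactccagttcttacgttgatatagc
Searched on both strands, TAAT was found 0 times in the window of Pdx1, 1 time in that of Nkx2-2, 2 times each in Pax6 and Isl1 and 3 times in Rfx6. Of 32851 windows of that length in the genome, 54.9% held it. The Maf half-site TGCTGA, which Mafa recognises, was found in the windows of Nkx6-1 (1 time) and Neurod1 (2 times), and in 16.1% of all windows. The E-box CANNTG, bound by Neurod1, lay in 66.2% of all windows and GATA in 53.6%. These are counts of letters in a short window and say nothing of binding.

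In control islets the members spanned a wide range of levels. Expressed as CPM per kb of annotated exon, Mafa stood highest, at 430 ± 47.9 (SD, n = 6), followed by Nkx6-1 at 170 ± 14.2 and Pdx1 at 91.6 ± 7.27. Neurod1 reached 65.6 ± 3.88, Nkx2-2 53.2 ± 2.86 and Isl1 34.8 ± 2.73. Pax6 at 28.5 ± 1.59 and Rfx6 at 27.7 ± 3.76 did not differ beyond their spread, and Hnf4a was lowest at 7.63 ± 0.698. The order on this scale depends on the length taken. The annotated exon union is 11694 bases for Pax6 and 4010 for Rfx6, whose normalized counts averaged 13800 and 4604 in Ctrl. In β-Mfn1/2DKO islets Mafa fell to 173 ± 56.3 (n = 5) but remained above Nkx6-1, at 108 ± 17.7, on this per-length scale.

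Depth differed between genotypes. Ctrl libraries held 12.4 to 20.3 M counts and β-Mfn1KO libraries 15.7 to 16.7 M, against 65.5 to 122.9 M in β-Mfn1/2DKO. Of the β-Mfn2KO libraries, replicates 4 and 5 held 56.0 and 59.5 M and the others 15.1 to 18.9 M. The smallest count of any member in any library was 404, for Hnf4a. As a check of the labels, Mfn1 mRNA was lower than in Ctrl by a log2 fold change of -1.31 in β-Mfn1KO and -1.07 in β-Mfn1/2DKO, and Mfn2 mRNA by -1.15 in β-Mfn2KO and -0.75 in β-Mfn1/2DKO. Pancreatic acinar genes stood apart in a few libraries. The mean log2 CPM of 10 acinar markers was 9.1 and 10.53 in β-Mfn1/2DKO replicates 4 and 5, 3.66 to 4.53 in the other β-Mfn1/2DKO libraries, 7.94 in β-Mfn2KO replicate 4, and 3.08 to 5.87 in Ctrl. Macrophage markers, summed, reached 20810 normalized counts in Ctrl replicate 6 and 29250 in β-Mfn2KO replicate 5, against medians of 1714 and 1682 in these genotypes. Mesenchymal markers reached 12370 and 13290 there, against 1466 and 1559. Each of these libraries was the lowest of its genotype for Mafa, Pdx1, Nkx6-1 and Pax6, and a link was not tested.

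Loss of both mitofusins was compared with Ctrl first. Of the 9 members, 6 were lower in β-Mfn1/2DKO islets and none was higher. Mafa fell most, to 40.2% of its control level, Pdx1 and Nkx6-1 fell by about the same measure as each other, and Pax6, Nkx2-2 and Isl1 fell by a log2 fold change of 0.29 to 0.35. A gene was said to pass where its adjusted p, from the quasi-likelihood test of edgeR over the whole table, was under 0.05. By this rule 16.5% of all genes passed, 6.86% in the lower direction. Among the 7060 genes that average 1000 or more normalized counts, as every member does, 37.6% passed, with 1305 genes lower and 1350 higher. With a 1.5-fold change asked for as well, 3 members remained (Mafa, Pdx1 and Nkx6-1), against 5.21% of all genes. The median log2 fold change was -0.3 over the members, 0.06 over all genes tested and 0 over those 7060 genes. In whole islets, fewer β-cells and less of an mRNA per β-cell cannot be told apart.

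**Figure D1:**
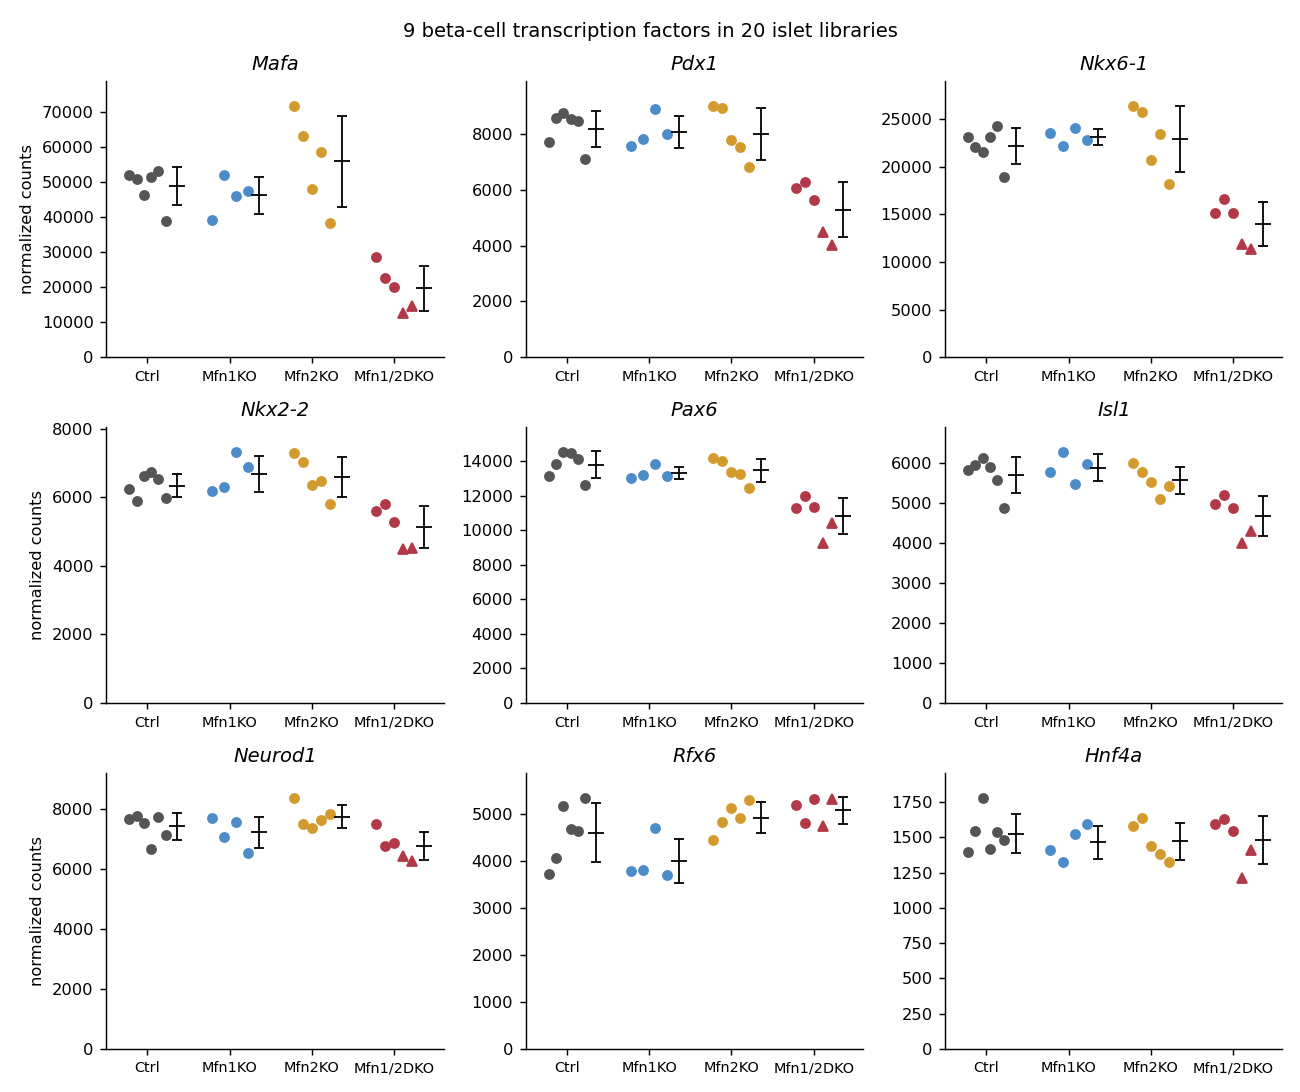
Normalized counts (y axis, from 0) of the 9 factors in every library, by genotype (x axis). Points are libraries, triangles are β-Mfn1/2DKO replicates 4 and 5, and the bar beside each group is the mean ± SD. The 5 β-Mfn1/2DKO libraries lie below every Ctrl library for Mafa, Pdx1, Nkx6-1, Nkx2-2 and Pax6, and within or across the Ctrl range for the other 4.

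Mafa, which drives insulin transcription in mature β-cells, is a gene of a single exon at chr15:75745490-75748228 on the minus strand (GRCm38, ENSMUSG00000047591). Its normalized counts, scaled by TMM to the mean library, ran from 38740 to 53140 in Ctrl with a median of 51180. In β-Mfn1/2DKO they were 28430, 22660, 19950, 12480 and 14580 in replicates 1 to 5. No β-Mfn1/2DKO library came near the lowest Ctrl library, and the 2 lowest were the replicates rich in acinar mRNA. The log2 fold change was -1.31 (SE 0.17, 95% interval -1.67 to -0.95, adjusted p = 1.2e-05). Without those replicates it was -1.02 (adjusted p = 0.00011).

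Pdx1, needed for the pancreas to form and later an activator of the insulin gene, lies at chr5:147269959-147275848 on the plus strand, and its promoter sequence is given above. In Ctrl its normalized counts ran from 7085 to 8764 (median 8497), and in β-Mfn1/2DKO they were 6055, 6281, 5618, 4472 and 4035. All 5 lay below the Ctrl range, with a log2 fold change of -0.63 (adjusted p = 0.00011, SE 0.1). Nkx6-1, which represses α-cell genes in β-cells and supports insulin secretion, lies at chr5:101658139-101664996 on the minus strand. It ran from 18910 to 24260 in Ctrl (median 22560) and stood at 15130, 16620, 15160, 11850 and 11340 in β-Mfn1/2DKO. The groups again did not overlap, and the log2 fold change was -0.66 (adjusted p = 7.5e-05, SE 0.1). For both genes the acinar-rich replicates were the lowest, and without them the log2 fold changes were -0.43 (adjusted p = 0.0015) for Pdx1 and -0.48 (adjusted p = 0.0017) for Nkx6-1.

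Pax6, a paired-box factor of all islet endocrine cells that acts on hormone genes, fell less. Its counts ran from 12600 to 14540 in Ctrl (median 13990) and were 11300, 11960, 11330, 9275 and 10410 in β-Mfn1/2DKO, with no overlap. The log2 fold change was -0.35 (adjusted p = 0.00034, SE 0.06), and -0.24 (adjusted p = 0.011) without replicates 4 and 5. Nkx2-2, which keeps β-cells from taking on other endocrine fates, ran from 5900 to 6725 in Ctrl (median 6390) against 5615, 5802, 5292, 4484 and 4515. It too did not overlap between the groups, with a log2 fold change of -0.3 (adjusted p = 0.0061, SE 0.07). Isl1, a LIM-homeodomain factor of all islet endocrine cells, ran from 4866 to 6124 in Ctrl (median 5852) against 4982, 5192, 4878, 3997 and 4295. Here 3 of the 5 β-Mfn1/2DKO libraries lay inside the Ctrl range, whose floor of 4866 is replicate 6 and whose next value is 5584. The log2 fold change was -0.29 (adjusted p = 0.005, SE 0.07). The calls of Nkx2-2 and Isl1 were lost without the acinar-rich replicates, where both stood at -0.16 (adjusted p = 0.16 and 0.13).

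The remaining 3 members did not pass. Neurod1, a basic helix-loop-helix activator of insulin, ran from 6644 to 7772 in Ctrl (median 7594) and stood at 7499, 6743, 6844, 6438 and 6259 in β-Mfn1/2DKO (log2 fold change -0.13, 95% interval -0.25 to -0.01, adjusted p = 0.14). Part of its exon sequence is shared with Cerkl. The annotation puts 201 exon bases of both genes on the same strand, of 2729 in Neurod1. The whole Cerkl count, over all its exons, was 14.2% of that of Neurod1 on average. Cerkl was itself lower in β-Mfn1/2DKO (-0.23, adjusted p = 0.0059). How many reads fell in the shared bases is not known, so the value of Neurod1 is uncertain by an unknown amount. Rfx6, a winged-helix factor that specifies islet endocrine cells, ran from 3716 to 5345 in Ctrl (median 4665), and all 5 β-Mfn1/2DKO values, 5184, 4806, 5324, 4746 and 5316, lay within that range. Its log2 fold change was 0.14 (95% interval -0.03 to 0.31, adjusted p = 0.29). Hnf4a ran from 1393 to 1781 in Ctrl (median 1507) and stood at 1594, 1629, 1548, 1212 and 1411 in β-Mfn1/2DKO. The difference was -0.04 (95% interval -0.21 to 0.12, adjusted p = 0.75) and turned positive, to 0.09, under total-count scaling. Between these groups, 5 of the 9 members showed no overlap of libraries (Mafa, Pdx1, Nkx6-1, Nkx2-2 and Pax6), against 10.6% of all genes.

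Some measured differences between the libraries went with these values. Scaling by total counts moved the median of all genes from 0.06 to 0.19, and 4 members then passed, Mafa (-1.16), Nkx6-1 (-0.52), Pdx1 (-0.49) and Pax6 (-0.21), where 22.2% of all genes did. The same 4 passed without β-Mfn1/2DKO replicates 4 and 5 (11.2% of all genes), whereas 6 passed when the acinar score was a covariate (14.4%). With depth class (above or below 40 M counts) as a covariate, which only β-Mfn2KO can inform, no member passed and 2.54% of all genes did, and Mafa stood at -0.98 (adjusted p = 0.082). Depth and the loss of both genes cannot be told apart against Ctrl. Within sexes, Mafa stood at -0.94 in females, where 3 members and 12% of all genes passed, and at -1.59 in males, where 5 members and 6.7% of all genes passed; the acinar-rich replicates are both male.

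**Figure D2:**
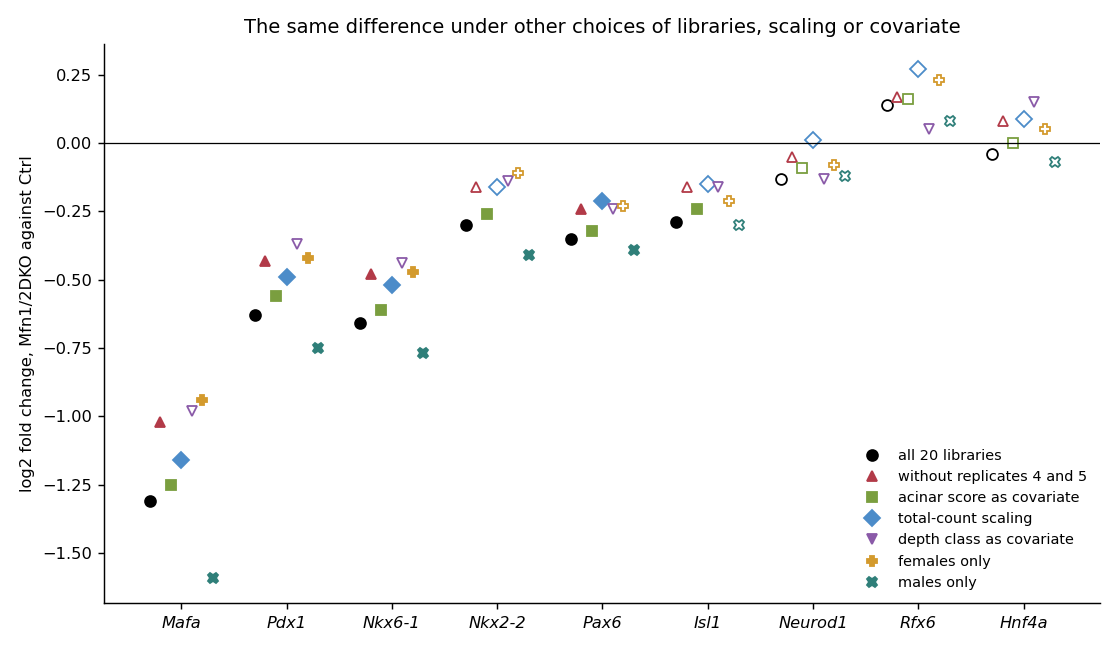
Difference between β-Mfn1/2DKO and Ctrl as a log2 fold change (y axis) for the 9 factors (x axis) in the fit to all libraries and in 6 others. Filled symbols have an adjusted p under 0.05. Mafa is the lowest in every setting, from -0.94 in females to -1.59 in males, and Nkx2-2 and Isl1 lose their filled symbol without replicates 4 and 5.

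No member passed after loss of a single mitofusin. Against Ctrl, 0 of 9 passed in β-Mfn2KO, where 0.0559% of all genes passed, and 0 of 9 in β-Mfn1KO, where 0.0279% did. At an unadjusted p under 0.05 there were 0 in β-Mfn2KO, where 4.22% of all genes lay under it, and 1 in β-Mfn1KO, where 7.44% did. DESeq2 also called 0 members in each, and 0.0768% and 0.0873% of all genes. Mafa was 71560, 63120, 47980, 58410 and 38390 in β-Mfn2KO. These values ran from below to well above the Ctrl range. The lowest was replicate 5, the library rich in macrophage and mesenchymal markers. The coefficient of variation was 23.2% against 11.1% in Ctrl, and the log2 fold change was 0.2 (95% interval -0.15 to 0.55, adjusted p = 0.93). In females alone (2 β-Mfn2KO against 3 Ctrl libraries) it was 0.43 and passed (adjusted p = 0.0044), as did 0.817% of all genes. In β-Mfn1KO, Mafa was 39230, 51830, 46010 and 47490, all within the Ctrl range (-0.08, 95% interval -0.45 to 0.29).

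The other members had smaller fold changes, apart from Rfx6. Pdx1 averaged 8008 ± 938.2 in β-Mfn2KO and 8071 ± 582.4 in β-Mfn1KO, against 8190 ± 649.6 in Ctrl. Nkx6-1 averaged 22870 ± 3453 and 23100 ± 818, against 22150 ± 1851. The 95% intervals of all 9 members in β-Mfn2KO lay between -0.24 and 0.55 on the log2 scale, and in β-Mfn1KO between -0.45 and 0.29. Rfx6 was the member with an unadjusted p under 0.05 in β-Mfn1KO, at 3777, 3805, 4701 and 3692 (log2 fold change -0.2, adjusted p = 0.64). Replicates 1, 2 and 4 lay at the low end of the Ctrl range or just under it, and replicate 3 was close to the Ctrl median.

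**Figure D3:**
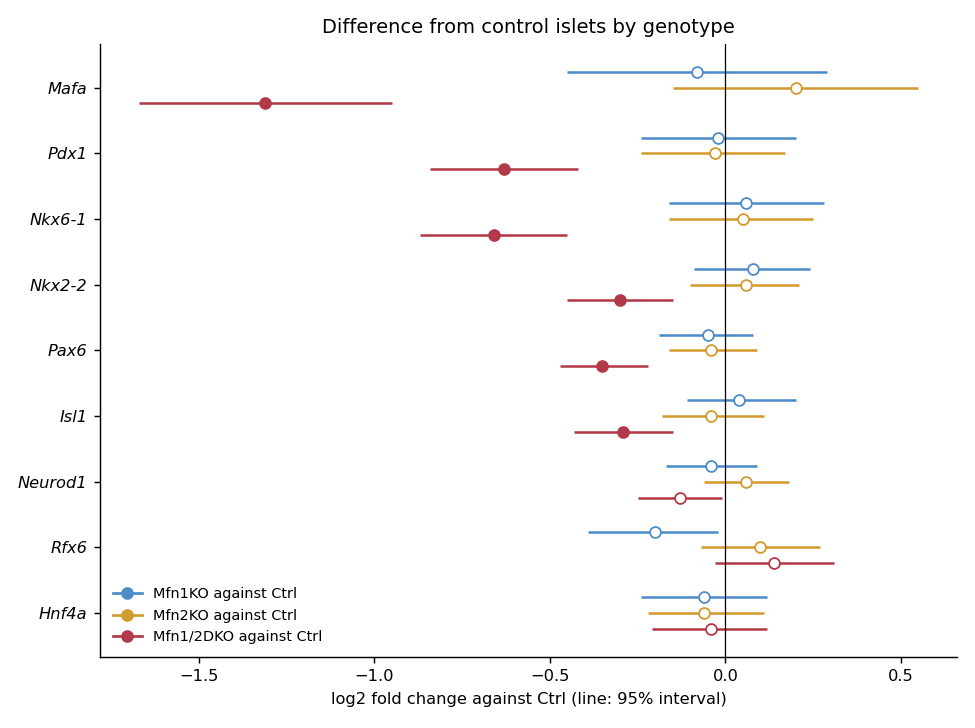
Log2 fold change against Ctrl (x axis) of each factor (y axis) in the 3 knockout genotypes, from 1 fit over 20 libraries. Lines are 95% intervals and filled points have an adjusted p under 0.05. The filled points are the 6 lower members of β-Mfn1/2DKO, from -1.31 for Mafa to -0.29 for Isl1. The 3 comparisons share the Ctrl libraries.

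Against the single knockouts, 7 members were lower in β-Mfn1/2DKO than in β-Mfn2KO, where 13% of all genes passed. Mafa differed by -1.51 (adjusted p = 6.1e-06, SE 0.18), Nkx6-1 by -0.71 and Pdx1 by -0.6. Neurod1 also passed, at -0.19 (adjusted p = 0.037). The libraries did not overlap for 5 of 9 members (Mafa, Pdx1, Nkx6-1, Nkx2-2 and Pax6), against 11.8% of all genes. For Nkx2-2 this was narrow, with the nearest libraries at 5802 and 5808 normalized counts. Among libraries above 40 M counts, which leaves β-Mfn2KO replicates 4 and 5, 6.3% of all genes passed. The β-Mfn1/2DKO libraries were deeper than these as well, with no overlap, so that depth and genotype cannot be told apart here either. Mafa stood at -1.25 (adjusted p = 0.038) and was the only member past the test, with Nkx6-1 at -0.52 (adjusted p = 0.11) and Pdx1 at -0.39 (adjusted p = 0.23).

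Against β-Mfn1KO, 7 members passed, where 17.4% of all genes did. Mafa, Pdx1, Nkx6-1, Nkx2-2, Pax6 and Isl1 were lower, with Mafa at -1.23 (adjusted p = 5.4e-05). Rfx6 was higher in β-Mfn1/2DKO by 0.35 (adjusted p = 0.0096, SE 0.09), and its libraries did not overlap between these genotypes. The effect of losing Mfn1 was then compared between islets without and with Mfn2, a test of the interaction. It differed for 4 members, against 5.92% of all genes, and was the more negative without Mfn2 for each of them: Mafa by -1.43 (adjusted p = 0.0013, SE 0.25), Nkx6-1 by -0.77 (adjusted p = 0.0031), Nkx2-2 by -0.43 (adjusted p = 0.019) and Pdx1 by -0.58 (adjusted p = 0.021). Without β-Mfn1/2DKO replicate 4 it held for 2 of them, where 4.73% of all genes passed.

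Ratios of counts within a library, from which library size and scaling cancel, set Mafa against other members. Each holds Mafa, which had the largest fall above, so the ratios are not independent of each other or of that fall. Mafa was lower relative to each of Pdx1, Nkx6-1 and Isl1. The Ctrl libraries held 5.29 to 6.73 Mafa counts per Pdx1 count, and the β-Mfn1/2DKO libraries 4.7, 3.61, 3.55, 2.79 and 3.61. On the log2 scale the ratio was 1.85 ± 0.27 in β-Mfn1/2DKO (SD, n = 5) and 2.57 ± 0.13 in Ctrl (n = 6), a difference of -0.72 (two-sided exact permutation test, p = 0.0043, adjusted p = 0.016 over the 12 ratios and contrasts tested). Mafa to Nkx6-1 differed by -0.7 and Mafa to Isl1 by -1.08, each with the same exact permutation p. This p is the smallest that 462 splits of 5 and 6 libraries can give, and in all these ratios the β-Mfn1/2DKO libraries did not overlap with Ctrl.

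Against β-Mfn2KO all 3 ratios differed likewise (exact permutation p = 0.0079 each, the smallest for 5 against 5, adjusted p = 0.016). None of the ratios passed in the single knockouts against Ctrl, with adjusted p from 0.089 to 0.54 by exact permutation. Without replicates 4 and 5 the differences from Ctrl were -0.6, -0.55 and -0.87, still with no overlap. The adjusted p was 0.071 in an exact permutation of 3 against 6 libraries. With no overlap this test gave its smallest possible p, so beside the other contrasts adjusted with them the ratios could not pass.

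**Figure D4:**
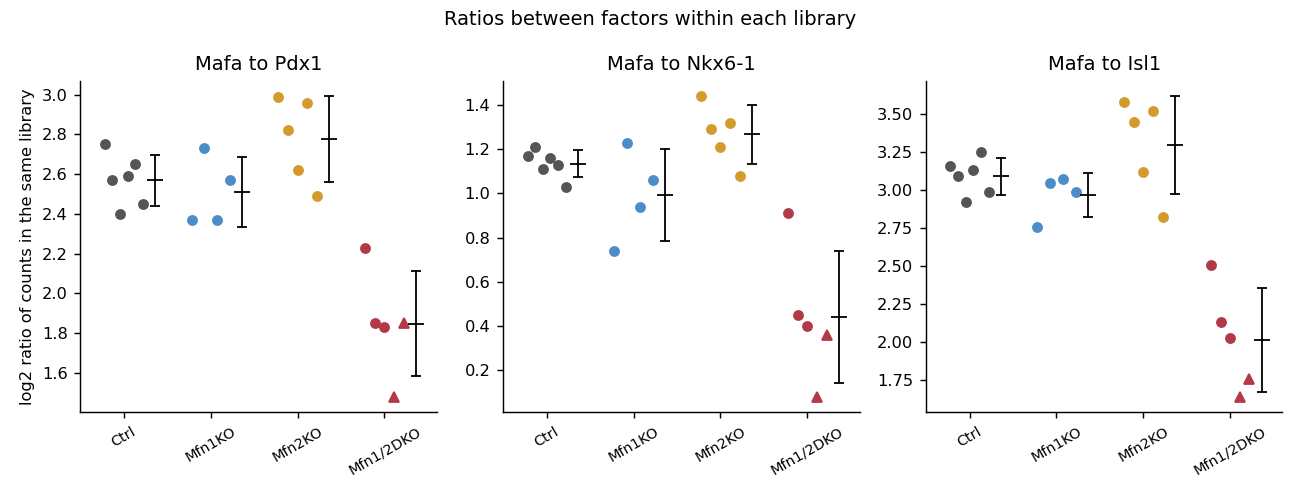
Log2 ratio of counts of 2 factors in the same library (y axis, not from 0) by genotype (x axis). Points are libraries, triangles are β-Mfn1/2DKO replicates 4 and 5, and bars are mean ± SD. The β-Mfn1/2DKO libraries lie below Ctrl in the ratios of Mafa to Pdx1, Nkx6-1 and Isl1, by 0.72, 0.7 and 1.08 on average.

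The members were also compared by how far their values lay apart over all 20 libraries, among 12274 genes averaging 100 or more normalized counts. The measure was the root mean square difference in log2 CPM after each gene was centred on its Ctrl mean. It is not scaled, so genes whose changes differ in size lie apart even where their pattern is alike. This is a description, and the values that gave the differences above are part of it. Pdx1 and Nkx6-1 were each other's nearest gene, at 0.096. Isl1 lay nearest to Pax6 (0.084). Mafa, with the largest fall, lay far from every member, with Nkx6-1 the nearest at 0.398. Its 5 nearest genes were Prss53 (0.184), Tmem215 (0.195), Slc2a2 (0.216), Sytl4 (0.219) and Ero1lb (0.233). Slc2a2 encodes the glucose transporter GLUT2, Sytl4 encodes granuphilin, which docks insulin granules, and Ero1lb encodes an oxidase of the endoplasmic reticulum. Outside the set, Nkx2-2 lay nearest to Slc7a4 (0.074), Pax6 to Prkaa1 (0.065), Neurod1 to Cerk (0.062), Rfx6 to Nbeal2 (0.088) and Hnf4a to Cbx6 (0.062).

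Other transcription factors of the islet were read in the same fit, as a list of 16 genes present in the table. Of these, 4 were lower and 2 higher in β-Mfn1/2DKO than in Ctrl, with a list median of -0.11. Over all genes 16.5% passed, 6.86% in the lower direction. Among genes averaging 1000 or more normalized counts, as many but not all of the 16 do, 37.6% passed. The lower ones were St18 (-0.58, adjusted p = 1.1e-05), Mnx1 (-0.43, adjusted p = 0.0017), a homeodomain factor needed for β-cells, Glis3 (-0.21, adjusted p = 0.023), a zinc-finger activator of insulin, and Foxo1 (-0.18, adjusted p = 0.026), a forkhead factor held in check by insulin signalling. The higher ones were Esrrg (0.37, adjusted p = 0.0017), a nuclear receptor of oxidative metabolism, and Insm1 (0.33, adjusted p = 0.0061), a zinc-finger factor of endocrine cells. Without replicates 4 and 5, Glis3 (-0.16, adjusted p = 0.2) and Foxo1 (-0.13, adjusted p = 0.28) no longer passed. Mlxipl (-0.02), Ldb1 (0.14) and Foxa2 (-0.12) were the most abundant of those that did not pass.

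Of 5 factors of the other endocrine cells, none passed in edgeR's test and 1 had an unadjusted p under 0.05, as did 27.8% of all genes, with a list median of 0.22 beside 0.06 over all genes. Etv1 stood at -0.18 (adjusted p = 0.34), Irx2 at 0.3 (adjusted p = 0.22) and Irx1 at 0.35 (adjusted p = 0.11), and in each of them the libraries of both genotypes overlapped. The 4 α-cell markers, summed, took 3.47 to 5.45% of counts in β-Mfn1/2DKO and 1.49 to 4.89% in Ctrl. Of them 0 passed, where 16.5% of all genes did.

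Of 9 factors of progenitor, ductal and acinar cells, 1 was lower and 2 higher, where 16.5% of all genes passed. Bhlha15, a factor of secretory cells that acinar cells express strongly, fell by 1.27 on the log2 scale (adjusted p = 9.8e-05). Gata4 rose by 1.77 (adjusted p = 0.046) and Gata6 by 0.23 (adjusted p = 0.038). Neurog3, the factor that starts endocrine fate, stood at -0.01 (505.7 ± 58.59 against 507.4 ± 87.24 normalized counts). Sox9, of ductal cells, stood at 0.55 and Nr5a2, of acinar cells, at 0.72, and neither passed. Gata4 averaged 110.3 ± 128.8 in β-Mfn1/2DKO, at 34.44, 20.74, 21.17, 159.1 and 315.9 normalized counts in replicates 1 to 5, against 18.68 to 44.42 in Ctrl, so that only replicates 4 and 5 lay above Ctrl. Without them it stood at -0.3 (adjusted p = 0.74), whereas Gata6 stood at 0.26 (adjusted p = 0.033). The acinar markers followed the same libraries. Of these, 9 of 10 passed as higher over the whole group and 0 of 10 without replicates 4 and 5, where 11.2% of all genes passed. Their sum had a median of 25070 normalized counts in β-Mfn1/2DKO and 31240 in Ctrl, and reached 1472000 in the highest β-Mfn1/2DKO library.

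Among 12 genes of the MODY list, 2 were lower and 2 higher, where 16.5% of all genes passed. Besides Pdx1, the lower one was Ins2 (-1.09, adjusted p = 4.5e-06). Klf11, a zinc-finger factor, rose by 0.76 (adjusted p = 6e-06), from 929 ± 100.7 to 1574 ± 140.3 normalized counts. Cel (3.82, adjusted p = 0.011), a lipase of acinar cells, is one of the acinar markers and stood at -0.8 (adjusted p = 0.56) without replicates 4 and 5. Abcc8 (-0.06) and Kcnj11 (-0.08), the subunits of the KATP channel, and the member Neurod1 did not pass.

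Of 11 β-cell genes on which these factors are known to act, 8 were lower in β-Mfn1/2DKO and none higher, with a median of -0.97. Over all genes, 6.86% passed in the lower direction, and 1305 of the 7060 genes averaging 1000 or more normalized counts did. Ins1 differed most (-2.6, adjusted p = 5.1e-11), but the study describes its Ins1-Cre line as a knockin. Ins1 was also lower in β-Mfn2KO (-0.94) and β-Mfn1KO (-0.82), the only gene of this list to pass in either. Every Ctrl library, from 1066000 normalized counts, lay above every single-knockout library, up to 960900. The part of the Cre allele in Ins1 was not tested. Slc2a2 fell by 1.6 on the log2 scale (adjusted p = 1.9e-07), from 20770 ± 2801 to 6860 ± 1518 normalized counts. Ucn3, a peptide of mature β-cells, stood at -1.36 (adjusted p = 1.2e-07), Ins2 at -1.09, G6pc2 at -1.02 (adjusted p = 4e-07) and Pcsk1, the proinsulin convertase, at -0.97 (adjusted p = 2.4e-05). Glp1r (-0.15), Abcc8 and Kcnj11 did not pass.

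**Figure D5:**
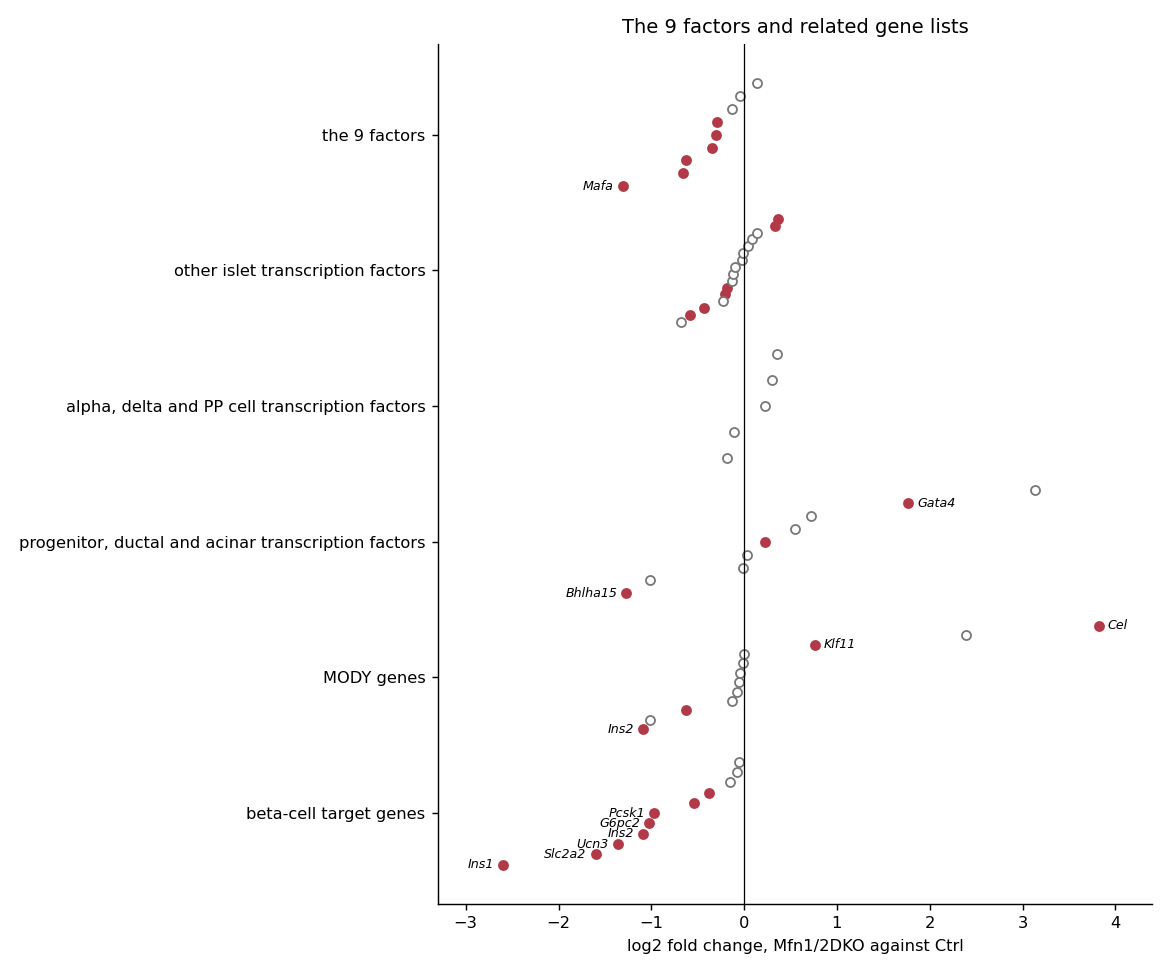
Difference between β-Mfn1/2DKO and Ctrl as a log2 fold change (x axis) for the 9 factors and 5 related gene lists (y axis, genes ordered by value within a list). Filled points have an adjusted p under 0.05, and those beyond 0.7 either way are named. The β-cell target genes run from -2.6 to -0.06, and the other islet factors from -0.68 to 0.37.

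Markers of the cells in the islet moved with the genotype beside these values. The 5 β-cell markers, summed, took 6.38 to 9.36% of counts in β-Mfn1/2DKO and 13.7 to 21.5% in Ctrl, with all 5 lower. They are Ins1, Ins2, Iapp, Ucn3 and Slc2a2, all of which are also in the list of β-cell target genes above. Their fall is thus not a separate result, and Ins1 was lower in both single knockouts too. Chga, a granule protein of all endocrine cells, was lower as well (log2 fold change -0.44, adjusted p = 0.024), but not past the test without replicates 4 and 5 (-0.31, adjusted p = 0.24). All 5 endothelial markers were higher, for example Plvap (0.86, adjusted p = 0.00041), at 6645 to 10840 summed normalized counts against 4508 to 6887, and 3 of them passed without those replicates. The 5 ductal markers, summed, took 0.0848 to 0.109% of counts in β-Mfn1/2DKO and 0.0594 to 0.0831% in Ctrl, with no overlap, and 2 of 5 passed. Krt7, a keratin that gives most of this sum, was higher by 0.41 (adjusted p = 0.0008), and by 0.53 without replicates 4 and 5. Krt19 was higher by 2.94 (adjusted p = 0.023), but stood at -0.53 (adjusted p = 0.7) without them. Spp1 (-0.54), Cftr (-0.21) and Sox9 (0.06) did not pass without them either, so that Krt7 alone did. Neither δ-cell (0 of 3) nor PP-cell markers (0 of 2) passed. Beside all these counts, 16.5% of all genes passed, and 11.2% without replicates 4 and 5. The part of these shifts in the values of the 9 factors was not tested.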

How the data were processed

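Bulk RNAseq counts of 20 mouse islet libraries were used, grouped by the genotype in the labels. The authors trimmed reads with cutadapt 2.3, checked them with FastQC 0.11.8, mapped 151-base read pairs to GRCm38 with STAR 2.6.1b and estimated gene counts with RSEM 1.3.1. The deposited table holds these counts as whole numbers, with genes at 0 in every library removed, and the strand setting is not given in the sources used here. The other deposited file, a depth-normalized signal that the authors made with DESeq2 1.26.0, served only to recover their factors for 1 alternative. No factor can be had for the 23.9% of entries that are 0. No sample column was left out.

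The 28632 genes were fitted with edgeR 4.0.16 in R 4.3.3 (TMM, glmQLFit, glmQLFTest, 1 coefficient per group, no covariate and no filter), with Benjamini-Hochberg adjustment over all genes. A gene passed at an adjusted p under 0.05. Normalized counts are counts scaled by TMM to the mean effective library size. The interaction is (β-Mfn1/2DKO minus β-Mfn2KO) minus (β-Mfn1KO minus Ctrl). Ratios of counts in 1 library were compared by exact permutation over libraries with SciPy 1.17.1. The scripts were tested on simulated data. Per-length levels use the exon union of GENCODE M21 on GRCm38, the source of gene symbols (71 IDs had none). Lmx1a was in the list of islet factors and has no row in the table. A few genes of the lists, and 1 ratio, are not reported here. Promoter windows come from RefSeq (GRCm38.p6), and are not from the authors' files.

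Library totals ran from 12.4 to 122.9 M. The study counts its RNAseq samples as mice, while the labels name no animals. The members and gene lists were chosen with earlier results of these data known. Named genes are every member, in each list up to 6 that passed against Ctrl in β-Mfn1/2DKO (by size) and up to 3 that did not (by mean count), the genes nearest each member, Mfn1, Mfn2, Chga, and markers whose sum moved. Cerkl falls outside this rule and was named after its values were seen, as it overlaps Neurod1. Alternatives tried were DESeq2 1.42.0, size factors of DESeq2 in edgeR, total-count scaling, the authors' factors, filterByExpr (15267 genes), the compared groups alone, sex, replicate number, acinar score or depth class as covariates, counts drawn down to the smallest total, females or males alone, libraries above 40 M counts, and leaving libraries out. Figures were drawn with Matplotlib 3.10.9, from tables handled in Python 3.11.15 with pandas 2.3.3 and NumPy 2.4.6.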

Additional observations from a re-analysis of the deposited data

Results flagged for a closer look

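Rfx6 stood apart in 1 library: β-Mfn1KO replicate 3 held 4701 normalized counts against 3692 to 3805 in the other 3, a gap of 0.888 of the range of the group. Of 48 groups of values checked this way, for the 9 members and 3 ratios, it was the only 1 past the critical value, where chance gives about 1 in 20.

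The effect of losing Mfn1 differed between islets without and with Mfn2 for 4 members, by the interaction term of the edgeR fit, which 5.92% of all genes passed. The difference was -1.43 for Mafa (adjusted p = 0.0013), -0.77 for Nkx6-1 (adjusted p = 0.0031), -0.58 for Pdx1 (adjusted p = 0.021) and -0.43 for Nkx2-2 (adjusted p = 0.019). All 5 β-Mfn1/2DKO libraries lay below all 5 β-Mfn2KO libraries for these 4 genes, whereas the β-Mfn1KO libraries overlapped with Ctrl. Between β-Mfn1/2DKO and β-Mfn2KO, 11.8% of all genes showed no overlap. For Nkx2-2 the nearest libraries of these 2 genotypes stood at 5802 and 5808 normalized counts.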

How the results depend on the processing

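Percentages beside a count of members are the share of all genes tested that passed in the same setting. Of the 9 members, 6 passed in β-Mfn1/2DKO against Ctrl (16.5%). Under the other planned settings 4 to 7 did (6.7 to 35.2%), with some exceptions. These were 3 in females (12%) and 0 with depth class as a covariate (2.54%). Leaving out any 1 library gave 6 each time (13.4 to 17.8%). Against β-Mfn2KO (7 members, 13%) the count was 3 with depth class (5.88%), 4 in females (10.6%) and 4 in males (4.31%). It was 4 without β-Mfn1/2DKO replicates 4 and 5 (8.68%) and 1 in libraries above 40 M counts (6.3%). When 1 library was left out it was 5 to 7 (9.81 to 13.5%). Against β-Mfn1KO (7 members, 17.4%) it was 4 under total-count scaling (23.2%), 0 with depth class (4.31%) and 4 in females (13.9%). For the interaction (4 members, 5.92%) it was 2 under total-count scaling (8.01%), with the acinar score (4.62%) and with depth class (3.18%). It was also 2 without replicates 4 and 5 (4.07%), and 6 with DESeq2 (10.1%) or filterByExpr (15.4%). Males hold 1 β-Mfn1KO library, so no count is given for them. Leaving out 1 library gave 2 to 4 (4.29 to 6.45%), with 2 without β-Mfn1/2DKO replicate 4 (4.73%). In β-Mfn2KO against Ctrl the count was 1 in females (0.817%) and otherwise 0. Hnf4a in β-Mfn1/2DKO against Ctrl (-0.04) changed sign to 0.09 under total-count scaling, 0 with the acinar score, 0.15 with depth class, 0.05 in females, 0.08 without replicates 4 and 5, and ran from -0.07 to 0.04 when 1 library was left out; Neurod1 (-0.13) moved to 0.01 under total-count scaling. The causes were not tested. The log2 ratios Mafa to Pdx1, Mafa to Nkx6-1 and Mafa to Isl1 kept their direction in each alternative run. They were -0.6, -0.55 and -0.87 without replicates 4 and 5 (exact permutation, adjusted p = 0.071, from the smallest p of 3 against 6 libraries). In males they were -0.84, -0.83 and -1.31, where 3 against 3 libraries cannot pass. Same-numbered libraries correlated at -0.126 to 0.333 over 27 pairs, 16 of them over 0.1, with a mean of 0.125 against -0.027 for other numbers. Replicates 1 and 2 are female and replicates 4 and 5 male wherever present, so most same-numbered pairs also share a sex. The part of sex in these correlations was not tested. Of the 5 pairs of Ctrl and β-Mfn1/2DKO, 4 were over 0.1, and 8 of 19 libraries correlated best with their own number. Since not every pair was over 0.1, the numbers were not taken to pair the samples. With the replicate block, 7 members and 17.3% of all genes passed against Ctrl. The paired ratios were -0.74, -0.72 and -1.1, with an exact sign-flip p of 0.0625, the smallest for 5 pairs. Each member had at least 404 counts in every library, and depth is tied to genotype.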

Other observations

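The spread of Mafa between libraries of a genotype widened from 11.1% in Ctrl and 11.3% in β-Mfn1KO to 23.2% in β-Mfn2KO and 32.6% in β-Mfn1/2DKO, as the coefficient of variation of normalized counts; the difference in spread was not tested. Pdx1 showed 7.93% in Ctrl and 18.7% in β-Mfn1/2DKO, and Nkx6-1 8.36% and 16.4%, whereas Rfx6 showed 13.6% and 5.51%. Within β-Mfn1/2DKO, replicates 4 and 5 were the lowest 2 libraries for Mafa, Pdx1, Nkx6-1, Nkx2-2, Pax6, Isl1, Neurod1 and Hnf4a, and for Rfx6 replicate 4 was the lowest and replicate 5 within 10 counts of the highest.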
